A study of Mus musculus with 4 samples.

Results

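The sirtuins are the 7 mouse genes *Sirt1* to *Sirt7*, taken here by symbol from a table of 23337 genes, and all 7 passed the filter on low counts that left 18547 genes for testing. They were followed in RNA-seq of medullary thymic epithelial cells (mTECs), the cells that present tissue antigens to developing T cells, sorted from the thymus of mice aged 4 weeks. There were 2 wild-type (WT) libraries and 2 libraries labelled with the genotype Sirt6-/-, called *Sirt6* cKO in the study. The labels give the strain as C57BL/6. By the study's methods the sorted cells were CD45- EpCAM+ UEA-1+ Ly51-, and the cKO animals carried a loxP-flanked *Sirt6* with Cre driven by *Foxn1*, while control animals lacked Cre. *Foxn1* is active in thymic epithelium, so any other cells in the sort would keep an intact *Sirt6*. The labels do not tie the libraries to single mice, and p-values therefore measure the spread between these libraries.

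Sirtuins remove acetyl and other acyl groups from lysines and consume NAD+ in doing so, which ties them to the supply of this cofactor. SIRT1, SIRT6 and SIRT7 are mainly nuclear, with SIRT6 acting on histone H3 at chromatin and SIRT7 in the nucleolus. SIRT2 is mainly cytosolic, and SIRT3, SIRT4 and SIRT5 are mitochondrial. In the thymus, SIRT1 is known to deacetylate AIRE, the regulator of tissue antigen expression in mTECs.

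The deposited counts summed to between 61102704 and 65907745 per library, so even the lowest sirtuin count, 138 for *Sirt3*, was well above 0 and the spread between replicates limited the precision. Epithelial markers were abundant, with summed levels of 3985 and 4144 TPM (a level per transcript length) over the 7 mTEC markers in WT against 4477 and 5792 TPM in the cKO-labelled libraries. Transcripts of other cells were also present. *Ptprc*, which encodes CD45, had 23695 and 16820 counts in WT against 26127 and 20558 in the cKO-labelled libraries, although the gate was CD45-. No marker of any list was at 0 in all libraries. In bulk RNA, fewer cells of a type and less RNA per cell cannot be told apart.

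*Sirt6*, the targeted gene, lies at chr10:81621785-81627797 on the minus strand of GRCm38, with 8 merged exons over 4 annotated transcripts. Its transcripts were not lower in the libraries labelled cKO. The counts were 622 and 755 in WT against 882 and 835 in the cKO-labelled libraries, or 9.50 and 11.9 against 14.6 and 13.02 CPM (counts scaled to library size). The groups did not overlap, and both cKO-labelled libraries were above both WT libraries. The log2 fold change was 0.37 ± 0.32 (SE), with an adjusted p = 0.800 in edgeR's quasi-likelihood test, and 52.5% of the genes tested had a larger change in either direction. Its 95% interval ran from -0.43 to 1.17, so the lowest level it covers is 0.741 of WT. The gene-level count therefore does not show a loss in the libraries labelled cKO. Counts were summed over the whole gene and the loxP-flanked exons are not given in the sources used here, so a transcript lacking some exons cannot be told apart from an intact one. The study also assayed SIRT6 by western blot in cultured TECs and *Sirt6* by quantitative PCR in sorted mTECs and cortical cells. It reports that *Sirt6* was inactivated, and those assays were not analysed here.

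The ratio of TPM to CPM was also compared between libraries, since it can shift when reads move between annotated transcripts of different length. For *Sirt6* its log2, less the median over genes in each library, was 0.64 and 0.63 in WT against 0.63 and 0.63 in the cKO-labelled libraries. The group means differed by -0.00092, and 47.2% of the 16925 genes with a value differed by more. The ratio hardly moved for most genes, with quartiles of that difference at -2.8e-06 and 0.0011. The lengths behind the TPM are not given, so the ratio cannot show whether a transcript lacking the loxP-flanked exons was present. The widest differences in the family were those of *Sirt4* (-0.045) and *Sirt3* (-0.034), which 5.39% and 6.84% of genes exceeded. No 50-base word of the 2825 in the annotated *Sirt6* transcripts was shared with another gene, and no exon of another gene overlapped it. The nearest protein-coding genes on either side had groups that overlapped. *BC025920* had 209 and 108 counts in WT against 30 and 133 in the cKO-labelled libraries, with a log2 fold change of -0.93 ± 1.001. *Ankrd24* had 477 and 226 against 145 and 492, with a log2 fold change of -0.11 ± 0.72.

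The start regions of *Sirt6*, *Sirt5* and *Sirt1* are shown because *Sirt6* was the member with a higher level and the others were among the members with the most negative log2 fold changes. The most negative member, *Sirt3*, is not shown. Each sequence is 300 bases from RefSeq (GRCm38.p6), 250 before and 50 after the start, 5′ to 3′ on the gene's strand. Capitals mark matches on either strand to the GC box GGGCGG, the E-box CACGTG, the CCAAT box CCAAT and the ETS site CCGGAAG. The *Sirt6* window is at chr10:81627517-81627816 (minus), the *Sirt5* window at chr13:43365285-43365584 (plus) and the *Sirt1* window at chr10:63338986-63339285 (minus).
Sirt6: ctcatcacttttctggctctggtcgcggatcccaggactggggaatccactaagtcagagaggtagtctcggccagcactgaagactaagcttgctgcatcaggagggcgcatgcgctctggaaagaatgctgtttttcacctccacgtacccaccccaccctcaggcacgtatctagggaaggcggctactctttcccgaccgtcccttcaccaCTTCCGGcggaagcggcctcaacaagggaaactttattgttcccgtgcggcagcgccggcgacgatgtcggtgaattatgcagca
Sirt5: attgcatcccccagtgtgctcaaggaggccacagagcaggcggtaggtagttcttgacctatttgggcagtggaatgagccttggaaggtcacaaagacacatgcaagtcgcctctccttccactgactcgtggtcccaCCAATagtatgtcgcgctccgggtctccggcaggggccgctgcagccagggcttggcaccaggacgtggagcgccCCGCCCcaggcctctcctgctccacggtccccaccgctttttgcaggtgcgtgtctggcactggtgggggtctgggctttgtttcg
Sirt1: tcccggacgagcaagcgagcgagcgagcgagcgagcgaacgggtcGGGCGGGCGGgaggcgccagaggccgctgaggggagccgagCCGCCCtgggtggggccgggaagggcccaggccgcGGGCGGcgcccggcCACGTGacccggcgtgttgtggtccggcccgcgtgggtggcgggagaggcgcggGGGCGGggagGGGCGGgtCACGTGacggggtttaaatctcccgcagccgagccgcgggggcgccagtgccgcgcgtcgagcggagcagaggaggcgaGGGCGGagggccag
*Sirt1* had 7 GC boxes, counted with overlap, and 2 E-boxes in a window of 79.0% GC, against a median of 52.7% over 32851 mouse promoters. *Sirt5* had 1 GC box and 1 CCAAT box, and the first *Sirt6* start had 1 ETS site. ETS sites were also found in the windows of *Sirt3* (first start, 1) and *Sirt7* (2), and *Sirt4* had no match to any of the motifs. GC boxes were also found for *Sirt2* (1), *Sirt3* (second start, 4), *Sirt6* (second start, 1) and *Sirt7* (1). CCAAT boxes were also found for *Sirt2* (2) and *Sirt3* (second start, 1). Over all promoters, 35.7% held a GC box, 7.15% an E-box, 37.4% a CCAAT box and 8.86% an ETS site. These matches describe letters in a window and not binding.

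**Figure D1:**
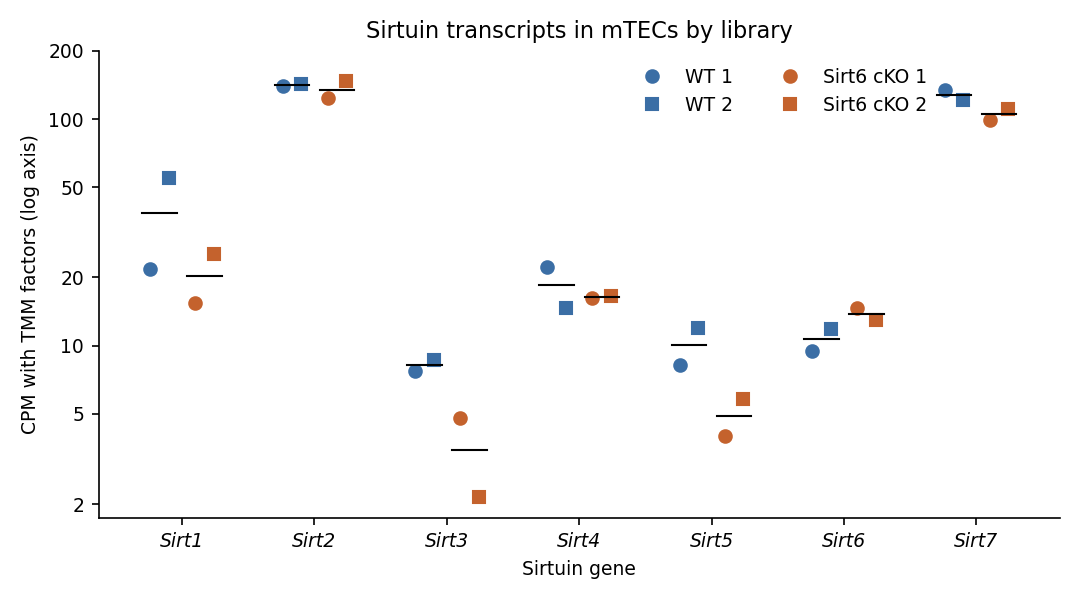
CPM with TMM factors (log axis) of the 7 sirtuins in each library, with circles for replicate 1, squares for replicate 2 and black lines for group means. *Sirt3*, *Sirt5* and *Sirt7* were lower and *Sirt6* was higher in both cKO-labelled libraries than in both WT libraries, while *Sirt1*, *Sirt2* and *Sirt4* overlapped.

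No sirtuin passed the test between the groups. Of the 7, 6 had a log2 fold change below 0, where 50.4% of all genes tested did, and *Sirt6* alone was above 0. Their median log2 fold change was -0.28, against -0.0047 for all genes tested. In edgeR 0 of 7 passed an adjusted p of 0.05 and 0 an unadjusted p of 0.05, which 0.00539% and 8.58% of all genes passed. DESeq2 also called 0 at either threshold, where 1.83% and 10.2% of all genes were called. The lowest unadjusted p-values lay close above 0.05. They were those of *Sirt5* (0.0554 in edgeR, 0.05001 in DESeq2) and *Sirt3* (0.0647 in edgeR, 0.0525 in DESeq2). The groups did not overlap for 3 members lower in the cKO-labelled libraries, against 20.3% of all genes, and for 1 member higher, against 21.6%.

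Among the nuclear members, *Sirt1* (chr10:63319005-63381704), a deacetylase of transcription factors, had 21.7 and 55.1 CPM in WT against 15.4 and 25.3 CPM in the cKO-labelled libraries. The second WT library stood above the other three, and the groups overlapped. The log2 fold change was -0.92 ± 0.52 (adjusted p = 0.686, edgeR), and it was -0.09 without that library. It was -1.46 without WT replicate 1, -0.605 without cKO replicate 1 and -1.35 without cKO replicate 2. *Sirt7* (chr11:120618372-120625240), which acts in the nucleolus and on ribosomal gene transcription, had 133.8 and 120.9 CPM against 99.2 and 110.9 CPM, and the groups did not overlap. Its log2 fold change was -0.28 ± 0.19 (adjusted p = 0.736, edgeR), with a 95% interval from -0.75 to 0.20.

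*Sirt2* (chr7:28766735-28788661), the cytosolic tubulin deacetylase, had 140.3 and 142.1 CPM in WT against 123.2 and 146.4 CPM in the cKO-labelled libraries, with the WT values inside the range of the others. The log2 fold change was -0.07 ± 0.19 (adjusted p = 0.954, edgeR) and its 95% interval, -0.53 to 0.40, covers levels from 0.691 to 1.32 of WT. Its sign changed without cKO replicate 1, to 0.05.

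The mitochondrial members had unlike log2 fold changes, and differences between them were not tested. *Sirt3* (chr7:140863666-140882309), the main mitochondrial deacetylase, had 509 and 551 counts in WT against 290 and 138 in the cKO-labelled libraries, or 7.78 and 8.66 against 4.80 and 2.15 CPM. Both cKO-labelled values were below both WT values and differed from each other more than the WT values did. The log2 fold change was -1.24 ± 0.54 (adjusted p = 0.611, edgeR), -1.93 without cKO replicate 1 and -0.81 without cKO replicate 2. *Sirt5* (chr13:43365496-43395203), which removes succinyl and malonyl groups, had 540 and 761 counts against 242 and 373, or 8.25 and 12.0 against 4.01 and 5.82 CPM. These groups did not overlap either, and the log2 fold change was -1.04 ± 0.43 (adjusted p = 0.595, edgeR), with a 95% interval from -2.11 to 0.03. *Sirt4* (chr5:115478010-115484725), which has weak deacetylase activity and acts on metabolic enzymes, had 22.4 and 14.7 CPM in WT against 16.3 and 16.5 CPM in the cKO-labelled libraries. Its groups overlapped, with a log2 fold change of -0.17 ± 0.33 (adjusted p = 0.931, edgeR) that became 0.14 without WT replicate 1.

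Marker sums of tuft and myeloid cells were, like *Sirt3*, *Sirt5* and *Sirt7*, lower in both cKO-labelled libraries than in both WT libraries. Of all genes tested, 20.3% had that pattern in CPM. The 5 tuft cell markers summed to 489.3 and 575.1 TPM in WT against 246.8 and 254.8 TPM in the cKO-labelled libraries, and 3 of 5 (*Gnb3*, *Avil* and *Trpm5*) were lower at an unadjusted p under 0.05, against 3.32% of all genes tested. *Gnb3* alone made up 326.3 and 385.0 TPM of the WT sums. The other 2 had log2 fold changes above 0 and did not pass that threshold, *Pou2f3*, a defining factor of tuft cells, at 0.24 ± 0.24 and *Dclk1* at 0.36 ± 0.34. The 6 myeloid markers summed to 10440 and 6324 TPM against 3929 and 4211 TPM, and 3 of 6 (*Lyz2*, *C1qa* and *Emr1*) were lower at that threshold. *Lyz2*, the lysozyme of macrophages, made up 9532 and 5941 TPM of the WT sums, and *Itgam* had a log2 fold change of 0.57 ± 0.64. No marker of either list was at 0 in all libraries. Their part in the sirtuin values was not tested.

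Several members overlap other genes or share sequence with them. *Sirt3* exons overlap those of *Ric8a* by 418 bases and of *Psmd13* by 342 bases on the opposite strand. Matched on either strand, 664 (10.6%) of its 50-base words occur in another gene, 371 in *Ric8a* and 293 in *Psmd13*. Whether strand was used in counting is not given in the sources used here, so the *Sirt3* counts are uncertain to that extent. *Psmd13*, a proteasome subunit, had 14380 and 12757 counts in WT against 13827 and 13606 in the cKO-labelled libraries, with a log2 fold change of 0.07 ± 0.17. *Ric8a*, listed as *Ric8*, had 3871 and 3642 against 3148 and 3475, with a log2 fold change of -0.13 ± 0.21. *Sirt5* has no exon overlap but shares 14.2% of its words with other genes, and no sirtuin shared a word with another sirtuin. *Sirt7* overlaps *Mafg*, a transcription factor gene, by 124 bases on the same strand, and *Mafg* had 450 and 452 counts against 224 and 330 (log2 fold change -0.66 ± 0.43). *Sirt2* overlaps *Nfkbib*, an inhibitor of NF-kB, by 42 bases, and *Nfkbib* had a log2 fold change of 0.17 ± 0.22.

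**Figure D2:**
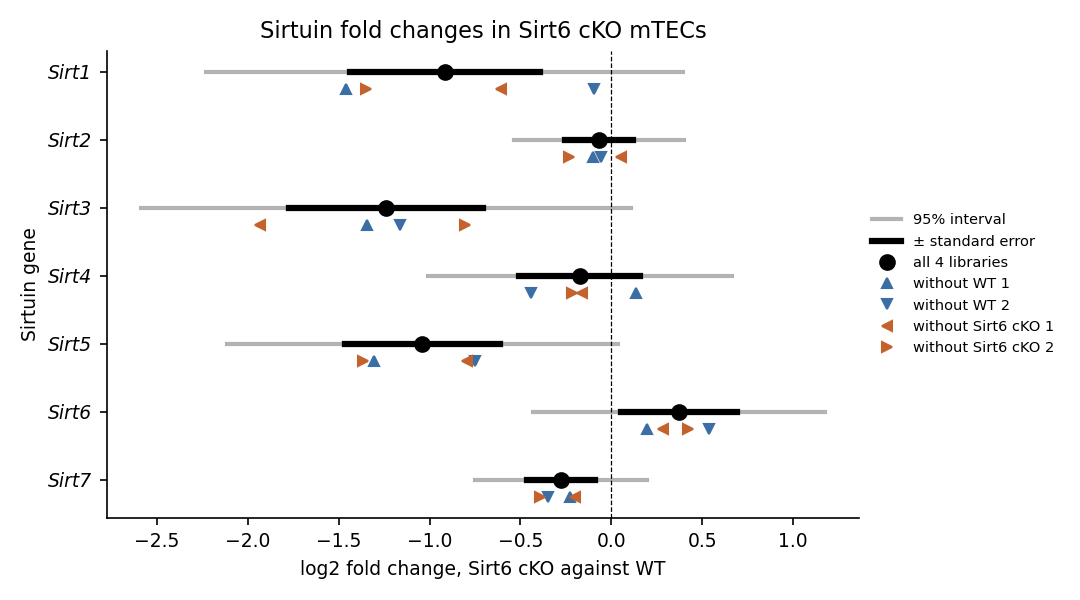
Log2 fold change of each sirtuin in the libraries labelled Sirt6 cKO against WT (edgeR), with the standard error in black, the 95% interval in grey and triangles for fits that leave out 1 library. Every interval includes 0, *Sirt6* stays above 0 in all 4 such fits, and *Sirt2* and *Sirt4* change sign in 1 fit each.

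Levels between the genes were compared per length, in TPM. *Sirt2* had 164.0 and 171.1 TPM in WT against 146.8 and 173.0 TPM in the cKO-labelled libraries, and *Sirt7* had 169.1 and 157.3 against 125.9 and 141.8 TPM. Below them came *Sirt4* at 21.1 to 31.2 TPM, *Sirt1* at 8.62 to 31.5, *Sirt6* at 12.2 to 18.8, *Sirt5* at 6.41 to 19.6 and *Sirt3* at 3.23 to 13.4 TPM. In this order of mean TPM, only *Sirt7* and *Sirt4* had ranges apart, with *Sirt7* 5.42 to 7.45 times higher, and the other neighbours did not differ beyond their spread. *Sirt6* ranked 5 and 6 in the WT libraries and 4 in each cKO-labelled library.

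The 7 genes summed to 413.5 and 429.5 TPM in WT against 335.7 and 381.1 TPM in the cKO-labelled libraries, or 421.5 ± 11.3 against 358.4 ± 32.1 (SD, n = 2 each). *Sirt2* and *Sirt7* made up 76.5% to 82.6% of this sum. *Sirt6* made up 2.95% and 3.63% in WT and 5.60% and 4.42% in the cKO-labelled libraries, or 3.29% ± 0.475 against 5.01% ± 0.834 (SD, n = 2 each). Neither pair of groups overlapped, and the exact two-sided permutation p was 0.333 for each, the smallest that 2 against 2 can give. The *Sirt6* to *Sirt3* ratio in TPM was 1.03 and 1.16 in WT against 2.64 and 5.22 in the cKO-labelled libraries. It sets the only member with a log2 fold change above 0 against the most negative one, so it adds no independent result. The *Sirt6* to *Sirt5* ratio was 0.93 and 0.80 against 2.93 and 1.80, and the *Sirt6* to *Sirt1* ratio 1.01 and 0.49 against 2.18 and 1.19. *Sirt3*, *Sirt4* and *Sirt5* together summed to 56.2 and 54.1 TPM in WT against 35.5 and 35.4 TPM in the cKO-labelled libraries. This sum was formed after its members' values were seen, so it adds no independent result. Its exact two-sided permutation p was also 0.333.

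**Figure D3:**
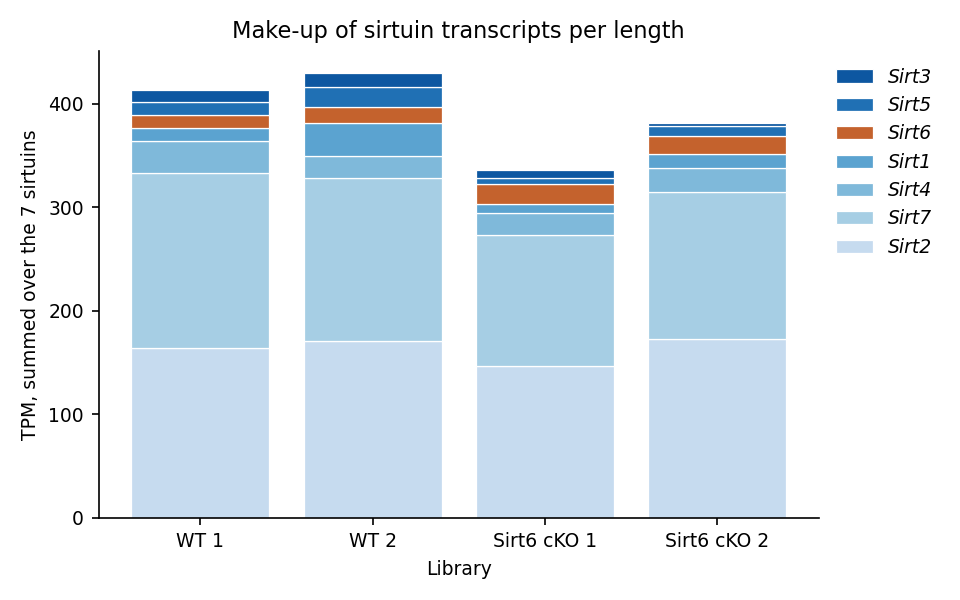
TPM of the 7 sirtuins stacked for each library, with *Sirt6* in orange and the others in blue. *Sirt2* and *Sirt7* fill most of each bar, and the *Sirt6* segment is 2.95% and 3.63% of the WT bars and 5.60% and 4.42% of the bars labelled Sirt6 cKO.

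Across the 4 libraries the members fell into different patterns. By the root mean square difference of log2 CPM after centring each gene, *Sirt2* and *Sirt7* were the closest pair (0.122) and *Sirt3* and *Sirt6* the farthest (0.935). The same measure over 15694 genes with a mean of at least 1 CPM placed *Kdelr1* (0.0121), *A730011L01Rik* (0.0137) and *Zfp593* (0.0209) nearest to *Sirt6*, and 321 genes lay within 0.1. For *Sirt3*, the member with the widest range, *Dkk3* (0.0510), *Alox5ap* (0.0610) and *Ccdc68* (0.0676) were nearest, and 5 genes lay within 0.1. With 4 libraries such likeness is a description only.

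The genes around the sirtuins were followed in 5 lists of 73 genes in all, of which 71 were found and 70 tested. At an unadjusted p under 0.05, 10 were higher and 2 lower, against 5.27% and 3.32% of all genes, and 0 passed the adjusted threshold in edgeR (lowest adjusted p = 0.541). The lists were chosen with earlier results of these data known, so this comparison with all genes is not an independent one. DESeq2 called 2 of them after adjustment, *Cd38* (adjusted p = 0.0038) and *Pdk4* (adjusted p = 0.0016), where 1.83% of all genes were called. For single lists, higher and lower refer to the unadjusted threshold, and the shares of all genes beside them are the same 5.27% and 3.32%. Values in parentheses are log2 fold changes with their SE. The 12 genes became 5 without WT replicate 2 and to 4 without cKO replicate 2.

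Of 15 NAD synthesis genes tested, 1 was higher and 0 lower, against 5.27% and 3.32% of all genes. Their median log2 fold change was 0.08. *Kynu*, kynureninase of the pathway from tryptophan, had 5908 and 5024 counts in WT against 7603 and 8935 in the cKO-labelled libraries (log2 fold change 0.65 ± 0.19). The extremes, neither past the threshold, were *Itgb1bp3*, a nicotinamide riboside kinase (1.64 ± 1.18), and *Qprt*, quinolinate phosphoribosyltransferase (-0.66 ± 0.33). Of 13 genes of NAD use, *Parp10* (0.77 ± 0.29) and *Parp4* (0.86 ± 0.34), members of the ADP-ribosyltransferase family, were higher at the unadjusted threshold and 1 was lower. That gene was *Cd38*, an NAD glycohydrolase of the cell surface, with 4830 and 3108 counts in WT against 1365 and 1556 in the cKO-labelled libraries (-1.39 ± 0.30). The myeloid marker sums given above were lower in the same libraries, and their part in the *Cd38* value was not tested.

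Of 19 regulators and substrates, 4 were higher and 1 lower, with a median of 0.02. *Rps19bp1*, an activator of SIRT1, had 1252 and 1258 counts in WT against 683 and 530 in the cKO-labelled libraries (-0.99 ± 0.32). *Ccar2*, an inhibitor of SIRT1 listed as *2610301G19Rik*, had 4598 and 3962 against 7181 and 5893 (0.67 ± 0.23). *Aire*, whose product SIRT1 deacetylates, had 23001 and 27268 against 33779 and 42559 counts (0.65 ± 0.18), and it also stands in the mTEC marker list. *Foxo3*, a transcription factor deacetylated by sirtuins, had a value of 1.05 ± 0.31, and *Cps1*, a urea cycle enzyme deacylated by SIRT5, one of 1.304 ± 0.39.

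Of 12 tested genes reported elsewhere as repressed by SIRT6, 2 were higher and 0 lower, with a median of 0.20. *Pdk4*, a kinase that inhibits pyruvate dehydrogenase, had 2193 and 1707 counts in WT against 4339 and 4551 in the cKO-labelled libraries (1.24 ± 0.24). *Igf2bp1*, an mRNA-binding protein gene, had 628 and 486 against 1028 and 1271 (1.10 ± 0.32). *Lin28b*, an RNA-binding regulator of let-7, had the highest value (1.95 ± 1.38, 68 and 5 against 156 and 112 counts) and *Aldoc*, a glycolytic aldolase, the lowest (-0.40 ± 0.45). *Hmga2*, a chromatin protein gene of the same list, had 0 and 0 counts in WT against 38 and 4 in the cKO-labelled libraries and was not tested. Of the 11 zinc-dependent histone deacetylases, which use no NAD, *Hdac9* was higher (1.01 ± 0.28) and *Hdac11* had the lowest value (-0.53 ± 0.36), with a median of -0.02. Directions here follow the labels of the libraries.

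**Figure D4:**
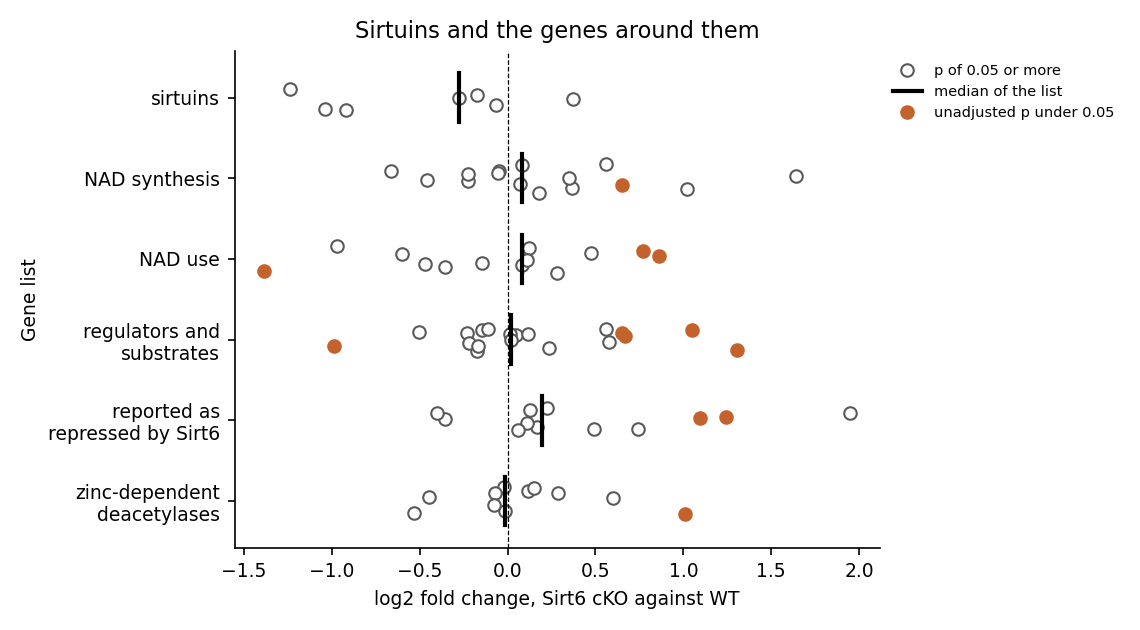
Log2 fold change, libraries labelled Sirt6 cKO against WT (edgeR), of each tested gene in the sirtuin family and the 5 lists around it, with filled points for an unadjusted p under 0.05 and black bars for list medians. No sirtuin is filled, 12 of the 70 other genes are, and the sirtuin median (-0.28) is the lowest of the 6.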

How the data were processed

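RNA-seq was made from sorted mTECs in 2 WT libraries and 2 libraries labelled Sirt6-/- (*Sirt6* cKO in the study). Per the submitters' processing notes and the study's methods, the authors trimmed reads and used HISAT2 2.1.0 (mm10) and StringTie 1.3.3. The annotation and the strand setting are not given in the sources used here. The deposited read counts per gene are raw, and the deposited TPM values are the authors' own scaling for length and depth, stored with a line of column totals that was left out.

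Counts were tested in edgeR 4.0.16 (R 4.3.3) with TMM factors, filterByExpr (minimum count 10, minimum total 15) and glmQLFTest over all 18547 genes left, with Benjamini-Hochberg adjustment at 0.05. The standard error is the fold change over the root of F. CPM uses the TMM factors. The scripts were tested on simulated data. Alternatives were DESeq2 1.42.0, limma 3.58.1 on log2(TPM + 1) and log2(TPM + 0.1), other filters and scalings, a replicate block and leaving out each library. Totals ranged from 61102704 to 65907745 counts.

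Named genes were all 7 sirtuins, list members with an unadjusted p under 0.05 or the largest or smallest fold change, the *Sirt6* neighbours and neighbours whose exons overlap a sirtuin, and the 3 genes most like *Sirt6* and *Sirt3*. The remaining named genes are markers or were chosen after their values were seen. Members and lists were chosen with earlier results of these data known. Older symbols were matched through RefSeq, and *Nmrk1* and *Nadk2* were not found. The other marker lists summed, in the order WT 1, WT 2, cKO 1 and cKO 2, to 277.5, 268.5, 304.2 and 166.2 TPM for cTECs, 992.3, 712.2, 901.0 and 558.0 TPM for thymocytes, 134.6, 95.7, 103.7 and 65.5 TPM for B cells, and 80.4, 90.9, 85.7 and 95.7 TPM for fibroblasts and endothelium.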

Additional observations from a re-analysis of the deposited data

How the results depend on the processing

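Over 12 alternatives for each sirtuin (84 fold changes), 82 kept their direction and none passed an adjusted p of 0.05 (0.453 to 0.999 in edgeR, DESeq2 and limma). Leaving out 1 library at a time gave log2 fold changes from -0.23 to 0.052 for *Sirt2* and from -0.44 to 0.14 for *Sirt4*, the only sirtuins to change sign, and from 0.19 to 0.54 for *Sirt6*. The count of sirtuins with an unadjusted p under 0.05, 0 as reported, was 2 with upper quartile scaling (*Sirt3* and *Sirt5*), 1 with library size alone (*Sirt5*), and 2 with limma at either pseudocount. It was 0 to 2 when 1 library was left out. The first 2 scalings move the median of all genes to -0.09. The 12 list genes at that threshold became 4 to 9 with 1 library left out. The cause was not tested. With 1 library in a group, it was assumed to vary like the others. Replicates that share a number had a correlation of -0.054 between their deviations over genes. A correlation over all genes cannot show whether such replicates share a batch that acts on some genes. With the replicate block 0 sirtuins and 13 list genes had an unadjusted p under 0.05. Apart from DESeq2, the share of all genes called under each alternative is not given here. The counts under those alternatives are therefore not read as results about the members. With 2 libraries a group, the spread between replicates limits what can be seen, not the depth.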
